A study of Homo sapiens with 6 samples.

Results

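Among the genes of the proteasome, the subunits that interferon induces and those that are present constitutively were compared between a breast cancer line and its tamoxifen-resistant variant. The members were 8 named genes, 5 of them inducible (PSMB8, PSMB9, PSMB10, PSME1 and PSME2) and 3 constitutive (PSMB5, PSMB6 and PSMB7). They were read through every probe set that carried 1 gene symbol in the platform annotation. That gave 7 probe sets of the 22283 on the array, 1 each for 7 of the 8 genes. PSME2 was on a probe set listed with several symbols and has no value here.

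The series holds 6 arrays of total RNA. SUM44 is a human cell line of invasive lobular breast carcinoma, given in the labels as ER+/PR+ (estrogen and progesterone receptors present). It was sampled at passages 74, 75 and 76 (replicates 1 to 3), grown in SFIH medium (Ham's F12) with no drug listed. LCCTam, a variant of SUM44 resistant to tamoxifen, was sampled at passages 8, 9 and 10 (replicates 1 to 3) in the same medium with 500 nM 4-hydroxytamoxifen, the active metabolite of the drug. LCCTam is a single variant line, and its resistance cannot be told apart from growth under the drug. Nothing in the labels states that the passages were independent cultures, so p-values measure the spread between these arrays, which may be technical.

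The 20S proteasome is a barrel of stacked rings that cuts proteins into peptides, and its proteolytic sites lie on the beta subunits encoded by PSMB5 (chymotrypsin-like activity), PSMB6 (caspase-like) and PSMB7 (trypsin-like). Interferon gamma induces replacement subunits, and in newly assembled particles PSMB8 (LMP7) takes the place of PSMB5, PSMB9 (LMP2) that of PSMB6, and PSMB10 (MECL-1) that of PSMB7. The resulting immunoproteasome makes peptides suited to binding MHC class I molecules, and PSME1 and PSME2 encode the alpha and beta subunits of PA28, a cap that opens the barrel. PSMB8 and PSMB9 lie within the MHC region of chromosome 6 next to TAP1 and TAP2, whose products carry peptides into the endoplasmic reticulum.

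Promoter windows are shown for PSMB8 and PSMB9, which moved together between the lines, for TAP1, which lies between them, and for PSMB10, an inducible member that was not called. They run from 250 bases before to 50 after a transcript start in RefSeq (GRCh38.p14), in the direction of transcription. Capitals mark matches, on either strand, to the core of the interferon-stimulated response element (GAAANNGAA) or to the palindrome bound by STAT dimers (TTCNNNGAA). The windows are PSMB8 at chr6:32843998-32844297 on the minus strand (the more downstream of its 2 starts), PSMB9 at chr6:32853942-32854241 on the plus strand, TAP1 at chr6:32853655-32853954 on the minus strand and PSMB10 at chr16:67936801-67937100 on the minus strand.
PSMB8: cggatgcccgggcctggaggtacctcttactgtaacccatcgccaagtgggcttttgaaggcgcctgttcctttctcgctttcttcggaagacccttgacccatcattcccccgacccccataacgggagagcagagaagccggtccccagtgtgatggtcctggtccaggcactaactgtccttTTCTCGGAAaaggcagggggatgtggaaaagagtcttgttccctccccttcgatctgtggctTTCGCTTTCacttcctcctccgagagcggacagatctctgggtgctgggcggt
PSMB9: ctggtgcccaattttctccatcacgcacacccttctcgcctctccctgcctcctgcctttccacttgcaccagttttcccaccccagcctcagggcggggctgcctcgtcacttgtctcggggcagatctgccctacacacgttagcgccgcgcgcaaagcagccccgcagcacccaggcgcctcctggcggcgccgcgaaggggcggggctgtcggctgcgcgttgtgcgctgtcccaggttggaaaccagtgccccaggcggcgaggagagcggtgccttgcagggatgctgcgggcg
TAP1: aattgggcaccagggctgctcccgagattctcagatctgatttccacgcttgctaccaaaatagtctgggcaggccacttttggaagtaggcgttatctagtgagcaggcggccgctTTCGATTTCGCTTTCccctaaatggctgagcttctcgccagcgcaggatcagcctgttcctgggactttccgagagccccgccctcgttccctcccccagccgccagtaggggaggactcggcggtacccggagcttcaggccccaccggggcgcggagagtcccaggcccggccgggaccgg
PSMB10: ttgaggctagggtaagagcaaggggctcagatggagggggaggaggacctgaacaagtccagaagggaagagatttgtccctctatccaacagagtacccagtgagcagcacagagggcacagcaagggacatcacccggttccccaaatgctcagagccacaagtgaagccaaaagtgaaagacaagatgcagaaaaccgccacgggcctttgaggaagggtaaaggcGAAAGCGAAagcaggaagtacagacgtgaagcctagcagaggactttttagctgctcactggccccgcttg

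Windows were found for 6 of the 8 members, 8 windows in all, as PSMB5 and PSMB8 each have 2. The interferon core was present in 4 of the 8 windows, 1 each of PSMB8, PSMB10, PSME1 and PSME2, against 8.11% of all 35116 promoter windows. In all 4 it had the same letters, GAAAGCGAA along its own strand, a version held by 0.268% of all windows and also by TAP1. That version was singled out after the matches were seen. Counted from the start as base 1, with no base 0, the core lay at -3 to 6 in PSMB8, -21 to -13 in PSMB10 and 7 to 15 in PSME1. The STAT palindrome was found in 1 window each of PSMB8 and PSMB5, against 7.66% of all windows. The core of the antioxidant response element through which NRF1 and NRF2 act (TGANNNNGC) was in 7 of the 8 windows, from 5 of the 6 members, and in 41.8% of all windows. In 1 PSMB5 window a STAT match and an antioxidant core match overlap. The printed PSMB9 window held neither of the marked motifs. The PSMB9 start lies 488 bases from the nearer start of TAP1, on the opposite strand, and the TAP1 window, which covers the TAP1 side of the stretch between them, held 2 overlapping interferon cores. A match is a run of letters and does not show a bound factor, and a window without a match says only that these letters are not in it.

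Luminal epithelial markers, which fit the labelled cell type, were bright in both lines. Median log2 expression over the probe sets tested was 6.03 to 6.08 on the 6 arrays. The 75th percentile was lowest on LCCTam replicate 3, at 7.55 against 7.74 to 7.84 on the other 5 arrays. Bright probe sets thus tended to read lower on that array. LCCTam replicate 3 stood apart in the 3' minus 5' difference of its actin control, at 1.92 against 0.90 to 1.15 on the other 5 arrays. Its GAPDH value was 0.61 against 0.09 to 0.31, and a larger value marks more degraded or shorter-copied RNA. Of 8 luminal epithelial markers 0 passed limma's adjusted threshold in either direction, against 5.73% lower and 2.03% higher over all genes. In limma 3 of them had an unadjusted p under 0.05, as had 2810 of all 11963 genes. Alternative fits called 1 marker lower without SUM44 replicate 3 or without probe sets of low mean. Likewise 1 was lower with an intensity trend in the variance prior and with 1 probe set per gene. These fits called 3.83% to 10.1% of all probe sets lower. Array weights called 3 markers lower and 1 higher, against 16.9% and 15.6% of all probe sets. KRT18 was at 13.40 and 13.18 and GATA3 at 12.80 and 12.57 in SUM44 and LCCTam. The largest difference in that list was MUC1, a luminal mucin gene, at 9.03, 8.60 and 7.64 in SUM44 and 7.18, 7.06 and 6.90 in LCCTam (difference -1.38, limma adjusted p = 0.0517), with every LCCTam array below every SUM44 array. SPDEF, a luminal transcription factor gene, was above on every LCCTam array (difference 0.27, limma adjusted p = 0.217). Leukocytes express PSMB8, PSMB9 and PSMB10 without interferon, and the mean of 12 leukocyte markers was 5.16 to 5.28 on the SUM44 arrays and 5.20 to 5.30 on the LCCTam arrays. PTPRC, the pan-leukocyte CD45 gene, was at 4.70 and 4.88, and 0 of the 12 markers passed, with or without adjustment in limma, the largest difference being CD2 at 0.26 (limma adjusted p = 0.389). The mean of 4 genes of class II presentation was 5.46 to 5.51 and 5.48 to 5.60, and that of 7 fibroblast markers 5.35 to 5.41 and 5.32 to 5.42, with 0 passing in either list, likewise without adjustment. The largest differences there were CD74 at 0.20 and DCN at -0.18 (limma adjusted p = 0.237 and 0.286). RMA values carry no detection calls, so these low values do not tell weak expression from none. Bulk arrays cannot tell fewer cells that express a gene from less of its RNA per cell.

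PSMB8 and PSMB9, 2 of the 3 inducible catalytic subunits, were lower in LCCTam by about 2-fold, and PSMB10 did not pass the test. The constitutive subunits PSMB5, PSMB6 and PSMB7 did not pass the test in either direction. PSME1 lay between, with all LCCTam arrays below all SUM44 arrays and an adjusted p just above the threshold of 0.05. All values below are RMA log2 expression, and a difference is LCCTam minus SUM44 from limma's moderated fit over 19065 probe sets with 1 symbol, with Benjamini-Hochberg adjustment over all of them.

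PSMB8, which supplies the chymotrypsin-like site of the immunoproteasome, was read at 8.35, 8.68 and 8.68 in SUM44 replicates 1 to 3 and at 7.54, 7.86 and 7.29 in LCCTam replicates 1 to 3. The lines did not overlap, and a gap of 0.49 separated the lowest SUM44 array from the highest LCCTam array. The difference was -1.0 (SE 0.17, 95% interval -1.39 to -0.61, limma adjusted p = 0.0165), which is 2.00-fold lower with an interval of 1.53 to 2.63. The call was lost without SUM44 replicate 2, SUM44 replicate 3 or LCCTam replicate 1 (adjusted p 0.0523 to 0.0894). Among all probe sets tested, 1.75% had a more negative difference. The identifier of the PSMB8 probe set ends in _s_at, a suffix for probe sets whose probes match several transcripts.

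PSMB9, which replaces the caspase-like PSMB6, was at 7.61, 8.30 and 8.51 in SUM44 and at 7.03, 7.19 and 7.07 in LCCTam. The SUM44 arrays were spread over 0.90, with replicate 1 the lowest, while the LCCTam arrays were within 0.16 of each other. The lines again did not overlap, with a gap of 0.42. The means were 8.14 ± 0.47 and 7.10 ± 0.08 (SD, n = 3 each), and LCCTam was lower by 2.06-fold (difference -1.04, SE 0.22, 95% interval -1.56 to -0.52, limma adjusted p = 0.0360). The call was lost when any single array other than SUM44 replicate 1 was left out, with adjusted p between 0.0546 and 0.150 and differences from -1.09 to -0.86, and with quantile normalization (adjusted p = 0.0545).

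PSMB10, the inducible counterpart of the trypsin-like PSMB7, was at 6.88, 7.36 and 7.71 in SUM44 and at 7.39, 6.90 and 6.91 in LCCTam. The lines overlapped, since SUM44 replicate 1 was the lowest of all 6 arrays and LCCTam replicate 1 the second highest. The difference of -0.25 (SE 0.23, 95% interval -0.79 to 0.30, limma adjusted p = 0.570) did not pass, and the interval extends to a fall of 1.73-fold. SUM44 replicate 1 gave the lowest SUM44 value for each of PSMB8, PSMB9 and PSMB10. Without it the PSMB10 difference was -0.47 and without SUM44 replicate 3 it was -0.05. The difference was -0.41 without LCCTam replicate 1, -0.17 without LCCTam replicate 2 or 3, and -0.03 with array weights. Its size thus depended on single arrays of both lines.

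PSME1, which encodes PA28 alpha, was at 10.95, 11.15 and 10.79 in SUM44 and 10.48, 10.46 and 9.98 in LCCTam. The lines were separated by 0.31. The difference was -0.65 (SE 0.16, 95% interval -1.04 to -0.27), or 1.57-fold lower, and the adjusted p of 0.0588 in limma missed the threshold. LCCTam replicate 3, the array with the larger 3' minus 5' difference, was the lowest. Without that array the difference was smaller, at -0.49, and the adjusted p was 0.0467. The adjusted p was also under the threshold with quantile normalization (0.0388), with probe sets of low mean left out (0.0382) and with array weights (0.00404). The last 2 fits called 10.1% and 16.9% of all probe sets lower. PSME1 thus passed in 4 of 13 alternatives. It did not pass when any other single array was left out (adjusted p 0.0828 to 0.214) or with array medians aligned (0.0641).

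**Figure D1:**
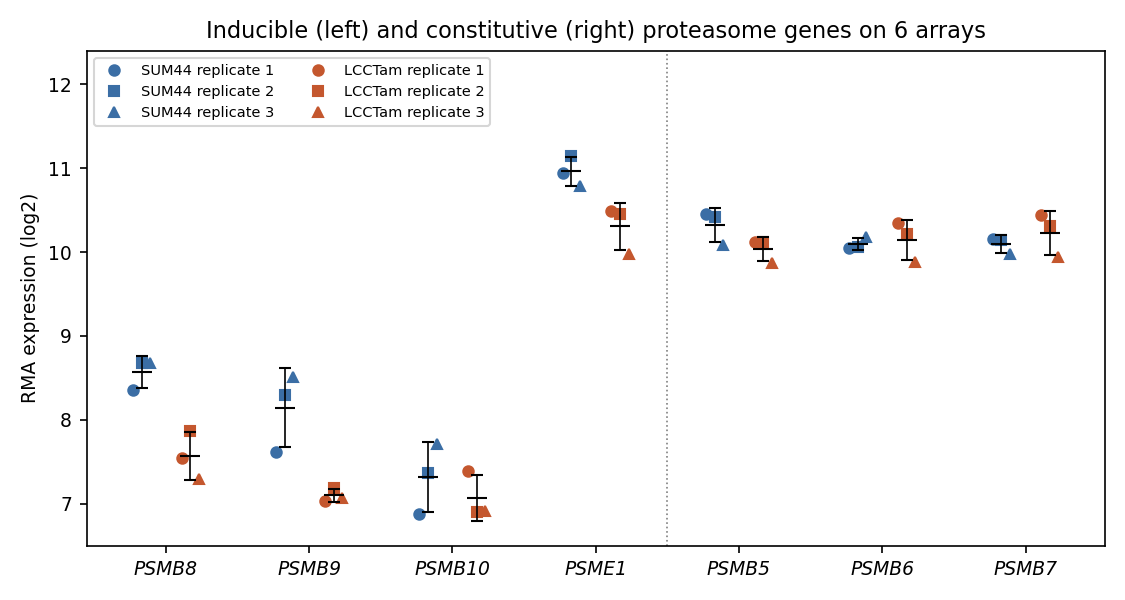
RMA log2 expression (vertical axis) of the 7 member probe sets on 6 arrays, with SUM44 in blue and LCCTam in orange. Marker shapes give the replicate, and black bars the mean and SD of 3 arrays. PSMB8, PSMB9 and PSME1 have every LCCTam array below every SUM44 array, and the constitutive genes right of the dotted line overlap.

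Of the constitutive subunits, PSMB5, the target of the proteasome inhibitor bortezomib, was at 10.45, 10.41 and 10.09 in SUM44 and at 10.12, 10.12 and 9.87 in LCCTam. SUM44 replicate 3 lay just below LCCTam replicates 1 and 2, so the lines overlapped. The difference was -0.28 (95% interval -0.59 to 0.02, limma adjusted p = 0.255), which leaves room for a fall of up to 1.5-fold.

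PSMB6 was at 10.05, 10.07 and 10.18 in SUM44 and at 10.34, 10.21 and 9.88 in LCCTam, with LCCTam arrays at both ends of the range. The difference was 0.05 (95% interval -0.25 to 0.36, limma adjusted p = 0.850), and -0.05 without LCCTam replicate 1.

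PSMB7 was at 10.16, 10.15 and 9.97 in SUM44 and at 10.44, 10.31 and 9.94 in LCCTam. LCCTam replicate 3 was the lowest of the 6 arrays and LCCTam replicates 1 and 2 were the highest. The difference was 0.14 (95% interval -0.20 to 0.47, limma adjusted p = 0.618). With array weights, which gave LCCTam replicate 3 a weight of 0.20 and LCCTam replicate 1 a weight of 5.40, it was 0.30 (adjusted p = 0.0280), in a fit that called 15.6% of all probe sets higher and 16.9% lower.

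**Figure D2:**
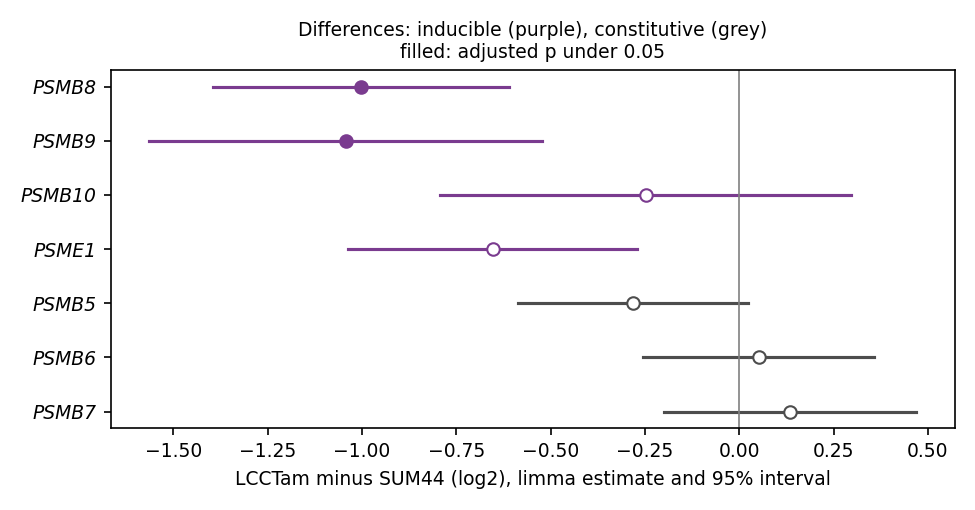
LCCTam minus SUM44 on the log2 scale (horizontal axis) for the 7 members, as the limma estimate with its 95% interval. Filled points passed an adjusted p of 0.05: PSMB8 at -1.0 and PSMB9 at -1.04, while the intervals of PSMB10 and of all 3 constitutive genes include 0.

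In counts, 2 of the 4 inducible probe sets were called lower, against 5.65% of all probe sets, and 0 of the 3 constitutive ones were called, against 5.65% lower and 1.72% higher over all. At an unadjusted p under 0.05 the constitutive count in limma was also 0, against 2810 of 11963 genes. The lowest of the 3 constitutive p-values in limma was 0.0650, for PSMB5. All LCCTam arrays lay below all SUM44 arrays for 3 of the 4 inducible probe sets, and the arrays overlapped for all 3 constitutive ones. Over all probe sets 16.6% had every LCCTam array below and 13.0% every LCCTam array above. The median difference was -0.83 for the 4 inducible members and 0.05 for the 3 constitutive ones, against 0.02 over 11963 genes. The inducible count depended on single arrays. It was 0 without SUM44 replicate 2, without SUM44 replicate 3 or without LCCTam replicate 1, and 1 without LCCTam replicate 2. The share of all probe sets called lower moved too, to 1.55%, 3.83%, 1.91% and 2.71% in those 4 settings. The PSMB8 difference stayed between -1.15 and -0.95 in them.

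A call in the inducible subunits with none in the constitutive ones does not show that they differ, so each inducible catalytic subunit was set against the subunit it replaces, within each array. Levels of different probe sets cannot be compared, and what is read is the change of the within-array difference from SUM44 to LCCTam. With 3 arrays against 3, the two-sided exact permutation test cannot give a p below 0.10, so none of the 3 comparisons could pass 0.05.

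PSMB9 minus PSMB6 was -2.43, -1.77 and -1.66 in SUM44 and -3.31, -3.02 and -2.81 in LCCTam. Every LCCTam array was lower, and the change was -1.09, a 2.14-fold fall of PSMB9 relative to PSMB6 (exact permutation p = 0.1, 0.15 adjusted over 3 pairs). PSMB8 minus PSMB5 was -2.10, -1.73 and -1.41 in SUM44 and -2.57, -2.25 and -2.58 in LCCTam. Here too every LCCTam array was lower, and the change was -0.72 (exact permutation p = 0.1, 0.15 adjusted). PSMB10 minus PSMB7 was -3.28, -2.79 and -2.26 in SUM44 and -3.05, -3.40 and -3.03 in LCCTam. The lines overlapped, with a change of -0.38 (exact permutation p = 0.3, likewise 0.3 adjusted). For PSMB8, leaving out single arrays gave changes from -0.90 to -0.55, and for PSMB9 from -1.33 to -0.95.

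**Figure D3:**
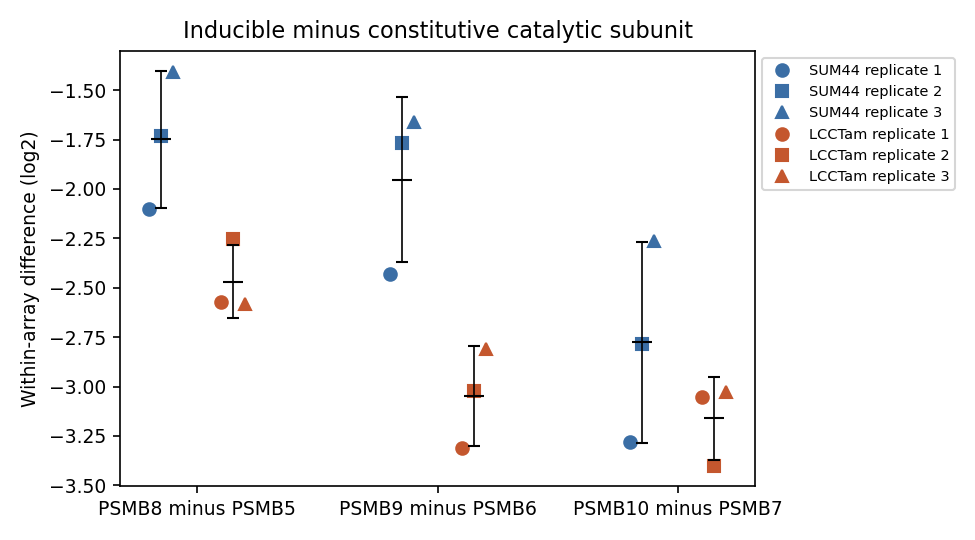
Within-array difference in RMA log2 expression (vertical axis) between each inducible catalytic subunit and the constitutive subunit it replaces. Points are arrays, with SUM44 in blue and LCCTam in orange, and bars the mean and SD of 3 arrays. LCCTam lies below SUM44 without overlap for the first 2 pairs and overlaps for PSMB10 minus PSMB7.

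The rest of the proteasome was read to see whether the members moved with the particle as a whole. The other 20S subunits, the alpha ring and the noncatalytic beta subunits, had 0 of 10 measured genes passing in limma (also 0 at an unadjusted p under 0.05), and at most 0.21 separated the lines in any of them (differences from -0.21 to 0.08, median -0.05). The largest was PSMA1 at -0.21 (adjusted p = 0.290). Over all genes read by their brightest probe set, 2.03% were higher and 5.73% lower. Of these 11963 genes, 2810 had an unadjusted p under 0.05. A count of 0 among 10 genes says little beside those shares. Of 15 subunits of the 19S regulatory cap, 0 were higher and 1 was lower, against 2.03% higher and 5.73% lower among all genes read by their brightest probe set. That gene was PSMD14, the deubiquitinase that removes ubiquitin chains from substrates, at 10.35 ± 0.06 and 9.91 ± 0.10 (SD, n = 3 each; difference -0.44, limma adjusted p = 0.0307). The call was lost when any array other than LCCTam replicate 3 was left out (adjusted p 0.0628 to 0.139), with quantile normalization (0.0929) and with an intensity trend in the variance prior (0.0549). The 19S median was -0.06. Of 10 genes for other activators and assembly factors, 0 passed in limma and 1 had an unadjusted p under 0.05, beside the same shares over all genes. PSME4, which encodes the activator PA200, had the largest difference at -0.45 (adjusted p = 0.113). The 20S median was 0.04 and the 19S median -0.02 without LCCTam replicate 3, so the sign of the 20S median depended on that array.

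Proteasome genes are held at a basal level by NRF1, encoded by NFE2L1, and can be raised by the related NRF2, encoded by NFE2L2. NFE2L1 was at 8.74 ± 0.31 and 8.84 ± 0.18 (SD, n = 3 each; difference 0.10, limma adjusted p = 0.768). NFE2L2 was read at 9.15, 9.06 and 9.04 in SUM44 and at 8.43, 8.28 and 8.65 in LCCTam. Its lines did not overlap, and it fell by 0.63 on the log2 scale (limma adjusted p = 0.0201). That call was lost when any array other than LCCTam replicate 3 was left out (adjusted p 0.0535 to 0.0940) and with quantile normalization (0.0732).

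In the interferon pathway that induces these subunits, the receptors and kinases did not pass and 2 transcription factors fell. Of 13 measured genes 2 fell and 0 rose, against 5.73% lower and 2.03% higher over all genes, the median difference being 0.003. IRF1, which binds the interferon response element in the PSMB9 and TAP1 region, was at 6.51, 6.67 and 6.80 in SUM44 and 5.76, 5.88 and 4.93 in LCCTam (difference -1.14, limma adjusted p = 0.0389). IRF9, the DNA-binding subunit of ISGF3, went from 9.41, 9.28 and 8.83 to 6.99, 7.71 and 6.63 (difference -2.06, adjusted p = 0.00880). The lines did not overlap for either factor, and LCCTam replicate 3 was the lowest array for both. Without it IRF1 still passed, while its call was lost when any other array was left out (adjusted p 0.0517 to 0.146). IRF9 lost its call without SUM44 replicate 2 (0.0573). The interferon gamma receptor genes IFNGR1 and IFNGR2 differed by -0.26 and 0.18, and the kinase genes JAK1 and JAK2 by -0.06 and -0.06, none of them passing.

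Downstream, antigen processing and MHC class I genes included 6 that fell and 0 that rose among 17 measured, with a median difference of -0.43, against 5.73% lower and 2.03% higher over all genes. LAP3, a cytosolic leucine aminopeptidase that trims peptides and is itself inducible by interferon gamma, was at 9.06, 9.49 and 9.50 in SUM44 and at 7.91, 7.66 and 7.65 in LCCTam. Its lines were separated by more than the spread of either, and the difference was -1.61 (limma adjusted p = 0.00220). LAP3 passed in every alternative that read it, with adjusted p up to 0.0201. HLA-C and HLA-B, which present the peptides, differed by -0.76 and -0.74 (adjusted p = 0.0442 and 0.0302). Both were read by _x_at probe sets, whose probes may bind related transcripts, and both calls were lost when any array other than LCCTam replicate 3 was left out (adjusted p 0.0534 to 0.143). The list's count was 7 lower without LCCTam replicate 3, but 3 without SUM44 replicate 1, 2 without SUM44 replicate 3 and 1 without SUM44 replicate 2, LCCTam replicate 1 or LCCTam replicate 2. Of all probe sets, 7.14% were lower without LCCTam replicate 3, and 1.55% to 4.3% without any of the others. Without _x_at and _s_at probe sets 3 of these genes were read and 0 fell.

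**Figure D4:**
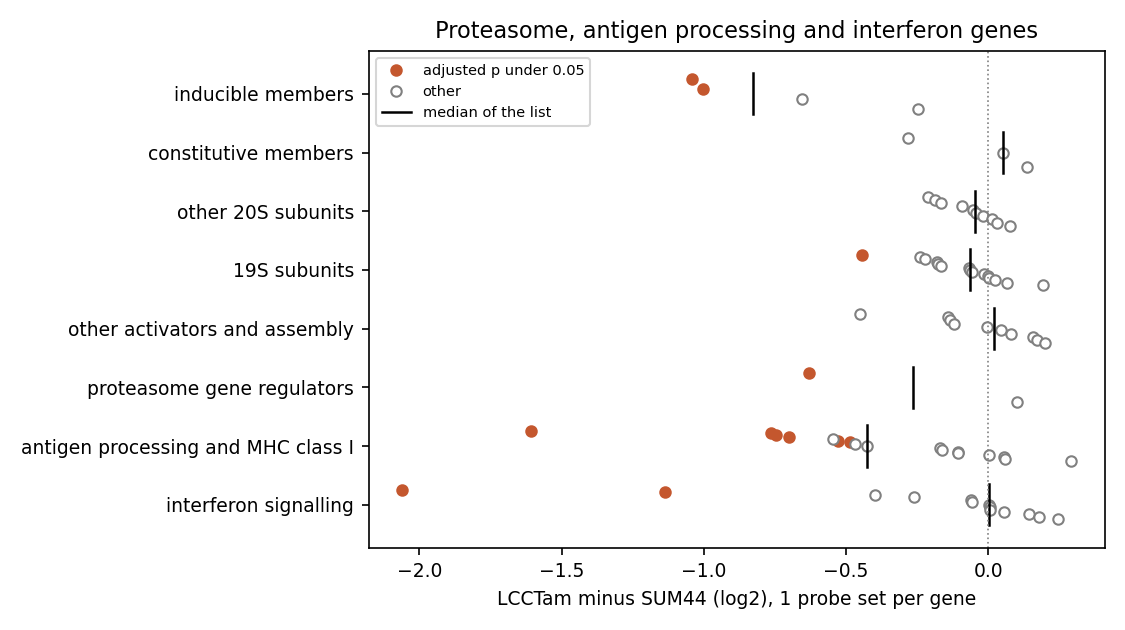
LCCTam minus SUM44 on the log2 scale (horizontal axis) for each gene of 8 lists, with 1 probe set per gene. Filled orange points passed an adjusted p of 0.05, open points did not, and black lines are list medians, at -0.83 for the inducible and 0.05 for the constitutive members. The other 20S subunits all lie between -0.21 and 0.08.

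The chromosomal neighbours of the members gave a contrast within the MHC region. Among measured genes the RefSeq order there is TAP2, PSMB8, TAP1 and PSMB9. TAP1, between both members that fell, was at 7.84, 8.21 and 8.17 in SUM44 and at 8.17, 8.23 and 8.00 in LCCTam. The lines overlapped throughout. TAP1 differed by 0.06 (SE 0.12, limma adjusted p = 0.822), and by -0.06 without SUM44 replicate 1. TAP2 differed by 0.05 (adjusted p = 0.852) and was dim, at 5.61 and 5.66. The probe sets that stood for TAP1 and TAP2 end in _s_at, as does that of PSMB8.

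TAP1 was singled out after its values were seen, and 2 within-array comparisons were added only to describe the contrast. PSMB9 minus TAP1 was -0.23, 0.08 and 0.35 in SUM44 and -1.14, -1.04 and -0.93 in LCCTam, a change of -1.10. PSMB8 minus TAP1 was 0.51, 0.46 and 0.51 in SUM44 and -0.63, -0.36 and -0.71 in LCCTam, a change of -1.06. The lines did not overlap in either comparison. Both members were already separated between the lines and TAP1 was chosen on these same values, so no p-value is read from either comparison. Leaving out single arrays gave changes from -1.25 to -0.96 for PSMB9 and from -1.16 to -0.99 for PSMB8.

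**Figure D5:**
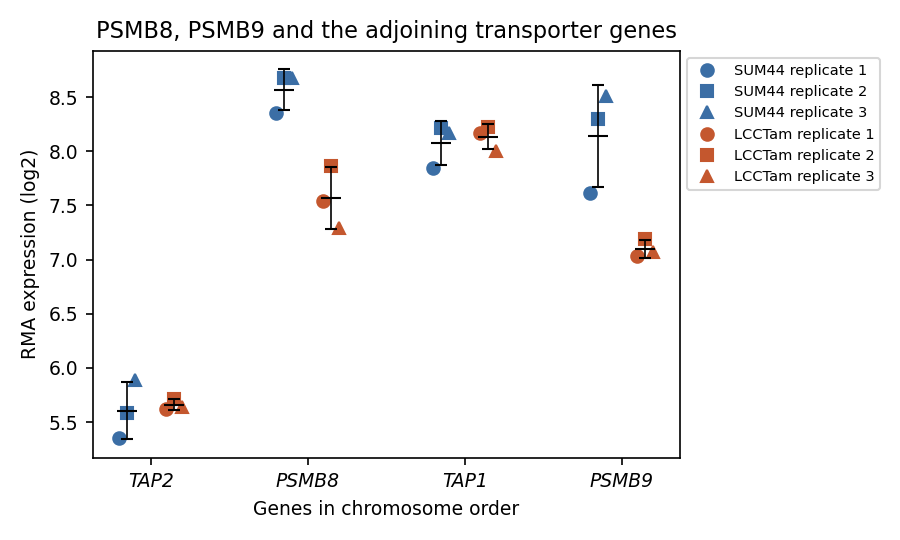
RMA log2 expression (vertical axis) of 4 genes in their chromosome order (horizontal axis, not to scale) on 6 arrays, SUM44 in blue and LCCTam in orange. Black bars are the mean and SD of 3 arrays. PSMB8 and PSMB9 are lower on all LCCTam arrays, and TAP1 and TAP2 between and beside them overlap.

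Near the other members, IRF9 was the only gene that passed among the measured genes up to 2 places away, and it lies 2 places from PSME1 on chromosome 14. EMC9, between PSME1 and IRF9, differed by -0.01 (limma adjusted p = 0.967). The neighbours of PSMB10 on chromosome 16, PSMB5 on chromosome 14, PSMB6 on chromosome 17 and PSMB7 on chromosome 9 differed by -0.32 (PRMT5, next but 1 to PSMB5) to 0.35 (DENND1A, next but 1 to PSMB7), with 0 passing.

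The genes nearest to the members in pattern were found by the root mean square distance between mean-centred log2 profiles over the 6 arrays, among 11962 other genes. For PSMB8 they were ZNF195 (distance 0.09), CNN3 (0.10) and TPST2 (0.11), for PSMB9 CEACAM1, PLK4 and SYNE2 (0.12 each), and for PSMB10 ACOT7 (0.09), SLCO4A1 (0.10) and CCDC85B (0.10). PSMB8 ranked 45th nearest to PSMB9, at 0.22, and PSMB9 ranked 108th nearest to PSMB8. PSMB10 ranked 1198th nearest to PSMB9 and 2684th nearest to PSMB8. PSME1 ranked 193rd from PSMB8 and 711th from PSMB9.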

How the data were processed

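The authors deposited log2 expression per probe set from RMA in Bioconductor, as the series' design text and, per the submitters' processing notes, the sample records state. RMA corrects background, normalizes between arrays and combines a set's probes into 1 value, and its version is not given in the sources used here. Genes were assigned by the platform annotation. Of 22283 probe sets, 20114 were listed in that annotation, and those not listed were left out. Controls numbered 68, and 1043 probe sets had several symbols. The 19065 others with 1 symbol were tested, with symbols of 19053 passed through the RefSeq gene table (GRCh38.p14).

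LCCTam was compared with SUM44 by limma 3.58.1 in R 4.3.3 (lmFit, eBayes, no filter, no block), with Benjamini-Hochberg adjustment over all probe sets tested and a threshold of 0.05. For gene lists the probe set with the highest mean stood for a gene. Pairs of subunits were compared by two-sided exact permutation over the arrays. Alternatives changed the normalization, the filter on low values, array weights, the variance prior, the probe sets used, the call rule and the arrays. The number of arrays limits the precision.

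Named were all members, up to 3 passing genes per list with the largest difference (otherwise the largest difference as a value) and the 3 genes nearest in pattern. The 2 measured neighbours on each side of a member were read, and only some of them were named. KRT18, GATA3, PTPRC and the receptor and kinase genes were named as markers or for their role. The members and lists were chosen with earlier results of these data known. Protein sequences were not used here.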

Additional observations from a re-analysis of the deposited data

How the results depend on the processing

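The directions of the PSMB8, PSMB9, PSMB10, PSME1, PSMB5 and PSMB7 differences were the same in every alternative run on them. With single arrays left out, PSMB6 ranged from -0.046 (without LCCTam replicate 1) to 0.183 and TAP1 from -0.057 (without SUM44 replicate 1) to 0.128, so both changed sign. PSMB8 ranged from -1.15 to -0.87 and passed in 9 of 12 alternatives, and PSMB9 ranged from -1.31 to -0.86 and passed in 7 of 13. The number of inducible members called lower was 0 to 2 when single arrays were left out. It was 1 without probe sets of the suffixes _x_at and _s_at, since PSMB8 is then not read, and 2 or 3 in the other alternatives. A count of 2 was not always PSMB8 and PSMB9. With quantile normalization, and without LCCTam replicate 3, PSME1 passed in place of PSMB9. The number of constitutive members called was 0 throughout, except 1 (PSMB7, higher) with array weights, where 15.6% of all probe sets were called higher. PSMB10 minus PSMB7 changed by -0.64 to -0.13 over its alternatives. The PSMB8 and PSMB9 changes in the 3 pairs moved by less than the spread between arrays. Leaving out 1 array leaves 5, so fewer arrays enter those fits. No paired analysis was possible because the lines share no passage number, and the replicate numbers only name the arrays in order. Low log2 values have no stated background, so differences of dim genes such as TAP2 may be compressed.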
